A study of Rattus norvegicus with 10 samples.

Results

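Genes of the cytosolic ribosomal proteins were examined in fetal rat hearts, as the symbols that start with Rpl or Rps and carry the pathway entry Ribosome in the deposited annotation, without the kinase symbols that start with Rps6k. The rule found 87 of the 18025 genes listed. Of these, 84 averaged 0.1 FPKM or more across the 10 libraries, among 14542 genes that did, 49 from the large subunit and 35 from the small. The muscle paralog Rpl3l had a mean of 0.0997 FPKM and fell just under that level, as did Rpl30l1 and Rplp0l1, and all 3 are described apart. All 87 genes matched a RefSeq gene by NCBI Gene number, and for 7 of them RefSeq used another symbol. Rps19l2, Rps9l1 and Rpl35al1 are the RefSeq genes Rps19, Rps9 and Rpl35a, so a suffix in the listed symbol did not always mean a copy. The gene listed as Rpl37 is RefSeq Rpl37l1, and Rps10l1 is called a pseudogene by RefSeq.

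The hearts came from wild-type Sprague-Dawley fetuses at embryonic day 19.5. Dams of the HG group were injected intraperitoneally with streptozotocin, which destroys insulin-producing cells, and dams of the CON group with the citrate buffer alone, both daily over consecutive days after mating. There were 5 CON and 5 HG libraries of stranded mRNA, with 16672876 to 19109844 reads on genes each, as recovered from the steps between FPKM values (fragments scaled by gene length and library depth). The labels did not tie a library to a dam or litter, fetal sex was not recorded, and the methods also speak of pooled RNA, so that p-values measure the spread between these libraries only.

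A ribosome is built from ribosomal RNA and a single copy of most of its proteins, and growing cells transcribe the genes of these proteins strongly and in balance. Vertebrate mRNAs of these proteins begin with an uninterrupted stretch of C and T, the 5' terminal oligopyrimidine (TOP) tract, through which mTOR signaling and the RNA-binding protein Larp1 control their translation. Several members have processed copies in the rat genome, some with a nearly identical mRNA. Others have paralogs, among them Rpl3l, which replaces Rpl3 in adult heart and skeletal muscle.

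The start of the mRNA is the sequence that members share, and it is shown for some of the members named below, next to paralogs. RefSeq promoter windows (GRCr8) covered 68 of the 87 members, and Rpl30 and Rps10l1 were not among them. The longest run of C and T that touched the 5 bases on either side of the annotated start had a median of 9 bases, and it was 8 bases or longer in 38 of the 68 members (55.9%). All 27457 RefSeq genes with a window had a median of 3 bases and a run of 8 or more in 8.65%. The runs were searched on the gene's own strand only. In the windows below, from 10 bases before the start to 20 after it, capitals mark that run.
Rps23: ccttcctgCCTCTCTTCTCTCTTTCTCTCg
Rplp0: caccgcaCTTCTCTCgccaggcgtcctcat
Rps18: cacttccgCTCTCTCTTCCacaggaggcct
Rpl10: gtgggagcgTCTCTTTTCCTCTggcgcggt
Rpl10l: tctccaTTTTgctgctggcggtgagcacgc
Rpl22: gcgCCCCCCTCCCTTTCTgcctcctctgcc
Rpl22l1: gtggatatccggTTCCgagttgcgcagcgc
Rpl39: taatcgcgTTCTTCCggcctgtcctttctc
Rpl39l: caggccgTCCCgctatcctggtgtgtggtc
Rps27: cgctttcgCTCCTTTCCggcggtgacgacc
Rps27l: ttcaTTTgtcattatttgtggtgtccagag
Rpl3: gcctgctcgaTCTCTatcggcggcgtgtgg
Rpl3l: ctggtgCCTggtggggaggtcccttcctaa
Rpl30l2: agttgctacaCCTTTCTCgctccccggcca

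In GRCr8 these windows lie at Rps23 chr2:23814507-23814536 on the plus strand, Rplp0 chr12:46718371-46718400 on the minus strand, Rps18 chr20:4933735-4933764 on the plus strand, Rpl10 chrX:157205840-157205869 on the plus strand and Rpl10l chr6:90281963-90281992 on the minus strand. Those of the next pairs lie at Rpl22 chr5:168117951-168117980 on the plus strand, Rpl22l1 chr2:113683186-113683215 on the plus strand, Rpl39 chrX:121195877-121195906 on the minus strand and Rpl39l chr10:5966602-5966631 on the minus strand. The last ones lie at Rps27 chr2:177964587-177964616 on the minus strand, Rps27l chr8:76443648-76443677 on the plus strand, Rpl3 chr7:113507971-113508000 on the minus strand, Rpl3l chr10:14258436-14258465 on the plus strand and Rpl30l2 chr10:37332841-37332870 on the minus strand. Each window spans the annotated start of the gene, with the first bases of its first exon at the right.

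The run was 13 bases in Rpl10 against 4 in Rpl10l, 15 in Rpl22 against 4 in Rpl22l1, 7 in Rpl39 against 4 in Rpl39l and 9 in Rps27 against 3 in Rps27l. It was 5 bases in Rpl3 and 3 in Rpl3l. In these 5 pairs the paralog had the shorter run each time. Rpl36a and Rpl36al, whose windows are not shown, differed by less, with runs of 5 and 4 bases. Rpl30l2, a copy of Rpl30 that RefSeq calls protein coding, has a run of 8 bases. The length depends on the exact base annotated as the start, and Rps16, an abundant member, has a run of only 2 bases at its annotated start.

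The members were among the most abundant mRNAs of the hearts. Their mean level over the 10 libraries had a median of 682 FPKM, with quartiles of 399 and 883 FPKM, and 76 of the 84 were at 100 FPKM or more. In the large subunit, Rpl41, Rpl31 and Rplp0 had the highest means, and in the small subunit Rps29, Rpsa and Rps18. Rpl41, the smallest ribosomal protein, ranged from 1626 to 1838 FPKM over all libraries. The lowest member tested was Rpl39l, with a mean of 2.19 FPKM for CON and 0.865 FPKM for HG. The coefficient of variation between libraries of a group had a median of 4.55% in CON and 5.03% in HG. It was above 15% for 11 members in CON and 6 in HG, with the short genes Rpl37, Rps27 and Rps28 and the paralogs Rpl10l and Rpl39l in both. Rps4y2, which RefSeq places on chromosome 4 despite its name, was the remaining gene in both. It had 49.3, 34.9, 41.5, 47.5 and 51.8 FPKM in CON1 to CON5 and 64.2, 79.5, 58.1, 47.3 and 46.9 FPKM in HG1 to HG5. Rps4y2 was not called in the limma fit of the deposited values (log2 fold change 0.38, SE 0.144, adjusted p = 0.0529). It was called higher with voom on recovered reads (adjusted p = 0.0329), with weights per library, with a filter at 1 FPKM and without CON5, HG4 or HG5.

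Libraries CON2 and HG5 stood apart from their groups at the shortest members. For Rps27 the level was 794, 1173, 761, 709 and 699 FPKM in CON1 to CON5 and 728, 703, 753, 816 and 1089 FPKM in HG1 to HG5. For Rps28 it was 376, 638, 397, 418 and 366 FPKM in CON1 to CON5 and 434, 441, 464, 418 and 608 FPKM in HG1 to HG5. In both genes CON2 and HG5 were the highest of their group, by 1.6 and 1.47 times the median of the other 4 libraries for Rps27 and 1.65 and 1.39 times for Rps28. The 11 members of up to 450 bases had a median deviation of 0.29 log2 units in CON2 and 0.10 in HG5 from the median of their group, against 0.00 and -0.03 for the 20 members above 900 bases. Other genes of up to 450 bases and at least 10 FPKM (n = 36) moved the same way in these libraries, by 0.14 and 0.07. Results are therefore given with and without CON2 and HG5 where they change.

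**Figure D1:**
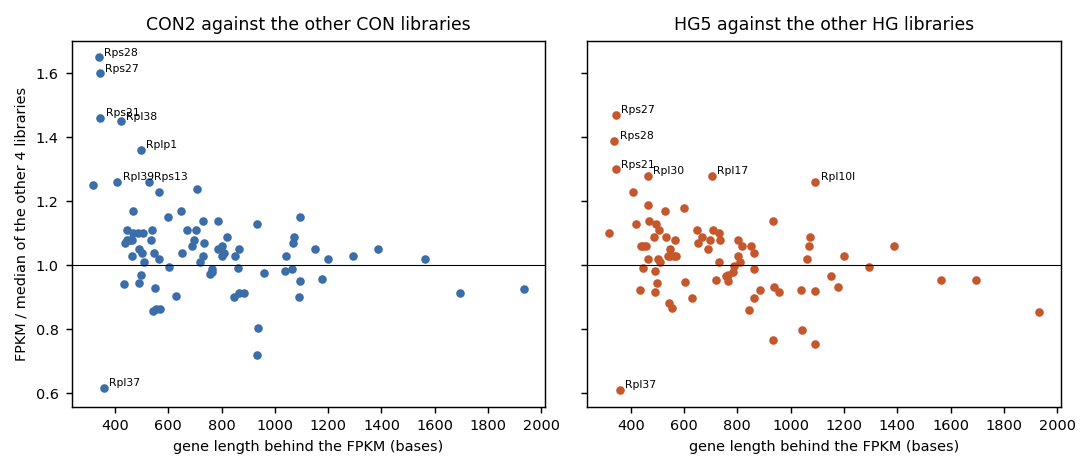
Level of each member in CON2 (left) and HG5 (right), divided by the median of the other 4 libraries of its group, against the gene length in bases. Rps27 and Rps28, among the shortest members, are the highest points in both panels, members of other lengths lie closer to 1 on both sides of it, and Rpl37, also short, lies at 0.617 and 0.611. Rpl39l, with few reads, is not drawn.

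HG and CON hearts were compared gene by gene with limma on log2(FPKM + 0.1), and a gene was called at a Benjamini-Hochberg adjusted p under 0.05 over all 14542 genes tested. Of the 84 members, 23 (27.4%) rose in HG, where 28.4% of all genes tested did, and 3 (3.57%) fell, where 11.8% of all genes did. The share that rose was thus near that of all genes. The median log2 fold change was 0.09 over the members and 0.09 over all genes tested. Among the 635 other genes at 100 FPKM or more, 23.8% rose and 37.2% fell, with a median of -0.04. The groups did not overlap for 15 members that were higher and for 1 that was lower, against 19.3% and 8.12% of all genes. In the large subunit 13 of 49 members rose and 3 fell (median log2 fold change 0.09), and in the small subunit 10 of 35 rose (median 0.09). For the small subunit, 0 members were lower at an unadjusted p under 0.05 in limma and 0 were called lower with voom on the recovered reads, but 2 (Rps10 and Rps18l1) were called lower with median-of-ratios factors.

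Most members moved little. An absolute log2 fold change of at most 0.25 (a fold of up to 1.19) was found for 78 of 84 members (92.9%), against 63.3% of all genes and 61.7% of the 635 other genes at 100 FPKM or more, a description with no test. Only Rpl30 and Rpl39l passed both the adjusted p and an absolute log2 fold change above 1, as 1.94% of all genes tested did.

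The direction of the small changes followed the scaling. With median-of-ratios factors, which moved the median of all genes to 0.01, 3 members rose and 6 fell, against 15.7% and 17.5% of all genes, and the members' median was -0.0025. With quantile normalization 53 rose and 3 fell, against 18.0% and 15.9% of all genes, and the members' median was 0.17. The rise of 20 of the 23 members was therefore not called under the first of these scalings, the 3 kept being Rps10l1, Rpl10l and Rps23. The falls of Rpl30, Rpl17 and Rpl39l were called under both. Without CON2 and HG5, 32 members rose, including the 23, against 24% of all genes, and the same 3 fell.

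**Figure D2:**
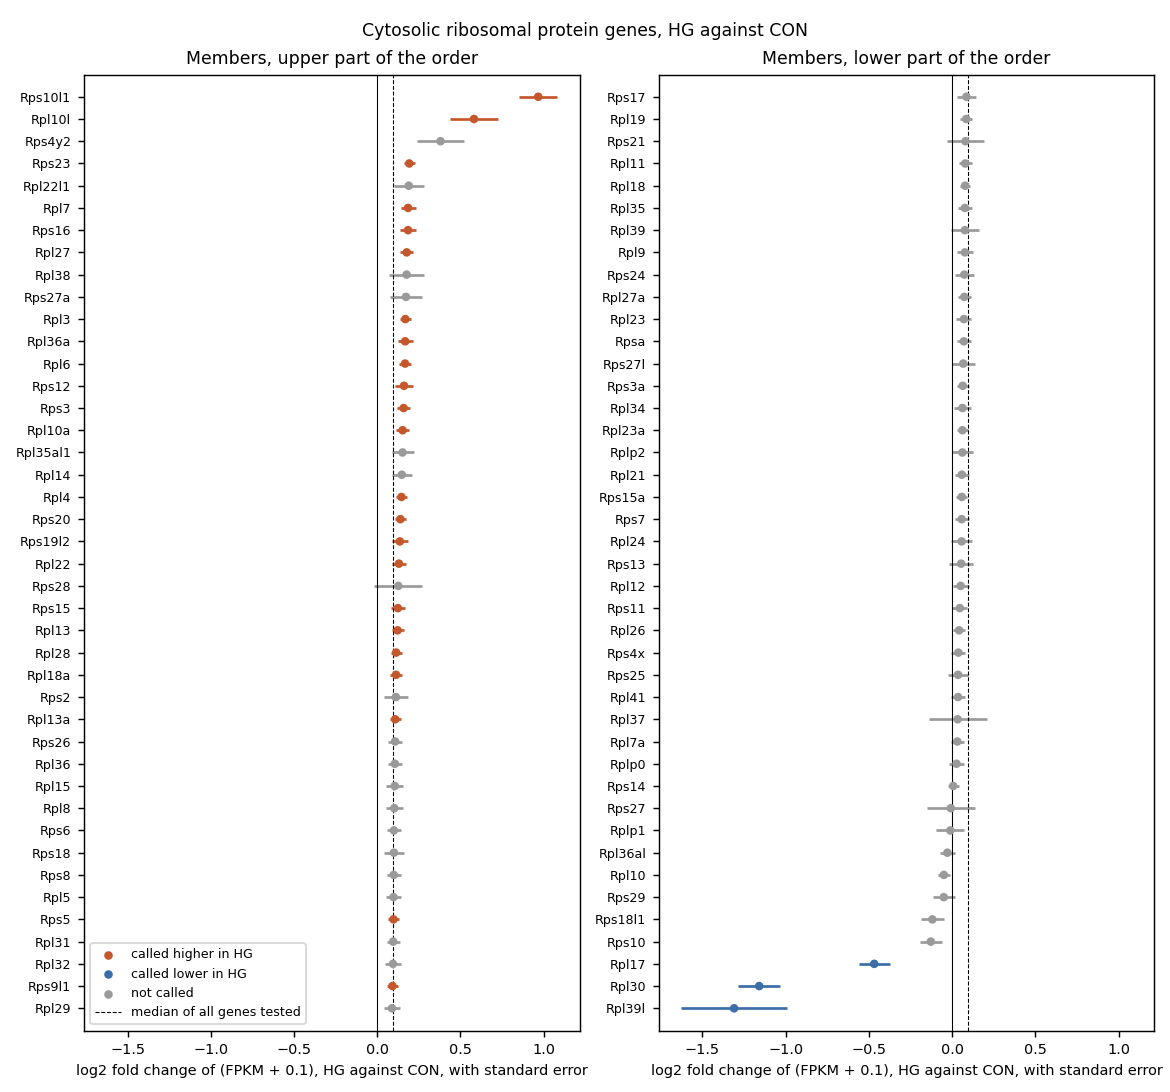
Log2 fold change of FPKM + 0.1, HG against CON, of the 84 members (points) with its standard error (bars), in order of size over both panels. The dashed line is the median of all genes tested, 0.09, and most members lie within 0.25 of 0, with Rps10l1 and Rpl10l far above and Rpl17, Rpl30 and Rpl39l far below.

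The members that rose without being copies did so by small steps. Rps23, a protein of the decoding center, had 1001, 1012, 1014, 979 and 997 FPKM in CON1 to CON5 and 1097, 1155, 1166, 1137 and 1161 FPKM in HG1 to HG5. All 5 HG libraries were above all 5 CON libraries, and the increase was 14.2% (log2 fold change 0.19, SE 0.0332, adjusted p = 0.000752). Rpl7, a large subunit protein that binds ribosomal RNA, had 833, 842, 824, 818 and 803 FPKM in CON1 to CON5 and 888, 864, 999, 959 and 979.8 FPKM in HG1 to HG5, again with no overlap (log2 fold change 0.18, SE 0.0448, adjusted p = 0.00613).

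Rps16, a small subunit protein, had 809, 819, 836, 757 and 713 FPKM in CON1 to CON5 and 890.0, 899, 868, 888 and 920.2 FPKM in HG1 to HG5 (log2 fold change 0.18, SE 0.0459, adjusted p = 0.00701). Rpl27, mutated in a few cases of Diamond-Blackfan anemia, had 717, 779.8, 739, 730.1 and 693 FPKM in CON1 to CON5 and 809, 813, 863, 819 and 829.9 FPKM in HG1 to HG5 (log2 fold change 0.18, SE 0.0386, adjusted p = 0.00332). In both genes each HG library was above each CON library. Rpl3, which lies near the peptidyl transferase center and is the parent of Rpl3l, had 768, 774, 760.1, 742 and 721 FPKM in CON1 to CON5 and 817, 838, 862, 868 and 845 FPKM in HG1 to HG5 (log2 fold change 0.17, SE 0.0346, adjusted p = 0.00227), also with no overlap. The other members that rose, leaving aside the copies below, had log2 fold changes from 0.09 for Rps9l1 to 0.17 for Rpl36a.

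The stalk proteins Rplp0, Rplp1 and Rplp2 form the arm that recruits elongation factors. Rplp0 had 1394 ± 51.4 FPKM in the CON hearts and 1420 ± 70.2 FPKM in the HG hearts (n = 5 each, SD, log2 fold change 0.03, SE 0.0446, adjusted p = 0.667). Rplp1 had 996 ± 151 FPKM in the CON hearts and 981 ± 57.2 FPKM in the HG hearts (n = 5 each, SD, log2 fold change -0.01, SE 0.0842, adjusted p = 0.932), and CON2 alone stood at 1259 FPKM. Rplp2 had 344 ± 35.8 FPKM in the CON hearts and 357 ± 18.9 FPKM in the HG hearts (n = 5 each, SD, log2 fold change 0.06, SE 0.0636, adjusted p = 0.474). The levels of the groups overlapped for all 3, and Rplp2 passed the threshold only when CON2 was left out.

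Rpl5 and Rpl11 carry 5S ribosomal RNA into the large subunit, and free of the ribosome they bind Mdm2, the ligase that degrades p53. Rpl5 had 823, 900.2, 824, 854 and 823 FPKM in CON1 to CON5 and 856, 876, 907, 913 and 970.5 FPKM in HG1 to HG5 (log2 fold change 0.10, SE 0.0432, adjusted p = 0.0908). Rpl11 had 437, 449, 431, 412 and 406 FPKM in CON1 to CON5 and 436, 435, 453, 458 and 472 FPKM in HG1 to HG5 (log2 fold change 0.08, SE 0.0388, adjusted p = 0.126). Neither was called, and the groups overlapped in both, although both passed the threshold with quantile normalization (adjusted p = 0.00783 and 0.00674 in limma) and Rpl5 also when CON2 was left out. Mdm2 itself had 9.64 ± 0.881 FPKM in the CON hearts and 10.3 ± 0.97 FPKM in the HG hearts (n = 5 each, SD, log2 fold change 0.09, adjusted p = 0.394). Of 18 members listed under the symbols of Diamond-Blackfan anemia genes, an inherited failure of red cell formation through loss of a ribosomal protein, 1 rose (Rpl27), where 28.4% of all genes did. The list has 20 genes, and the remaining ones are Rps19 and Rpl35a, which the annotation lists as Rps19l2 and Rpl35al1. Rps19l2 rose (log2 fold change 0.14, SE 0.0479, adjusted p = 0.0395) and Rpl35al1 was not called, which makes 2 of 20.

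Of the most abundant members, none was called as deposited. Rpl41 (adjusted p = 0.551 in limma), Rpl31 (adjusted p = 0.0674), Rps29 (adjusted p = 0.592), Rpsa (adjusted p = 0.192) and Rps18 (adjusted p = 0.21) had log2 fold changes of 0.04, 0.10, -0.05, 0.07 and 0.10. Rpl41, Rpl31 and Rpsa were called higher with quantile normalization. Rpl31 was also called without CON2 and HG5 (adjusted p = 0.0416 in limma) and without CON2 alone (0.0341). Removing the length trend (0.042), voom on recovered reads (0.0424) and a filter at 1 FPKM (0.0495) called it too. Fau and Rack1, genes of ribosomal proteins outside the symbol rule, had log2 fold changes of 0.01 and 0.05, and neither was called with limma as deposited.

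Larger differences were found at 4 genes of the large subunit and at 1 of the small, and 4 of these 5 genes have a related gene of similar sequence that was also expressed. Rpl30, a large subunit protein that in yeast represses the splicing of its own transcript, had 389, 496, 591, 381 and 579 FPKM in CON1 to CON5 and 196, 213, 204, 203 and 261 FPKM in HG1 to HG5. All HG libraries were below all CON libraries, and within CON the levels were lowest in CON1 and CON4. On the fitted scale Rpl30 fell by 55.2% (log2 fold change -1.16, SE 0.127, adjusted p = 3.46e-05). With median-of-ratios factors and with quantile normalization the log2 fold change was -1.25 and -1.08.

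The copy Rpl30l2, listed as LOC100362027 and looked at after the values of Rpl30 were seen, moved the opposite way. It had 238, 248, 53.1, 239 and 48.2 FPKM in CON1 to CON5 and 421, 410.4, 443, 455 and 442 FPKM in HG1 to HG5 (log2 fold change 1.75, SE 0.447, adjusted p = 0.00832 in limma). The libraries stood at 3 levels, with CON3 and CON5 lowest, CON1, CON2 and CON4 between and all HG libraries highest. These values rest on many reads, 2116, 2218, 459, 2131 and 418 on the copy in CON1 to CON5 and 3945, 3697, 3770, 3937 and 3611 in HG1 to HG5, so depth does not limit them.

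The sum of Rpl30 and Rpl30l2 was 627, 744, 644, 619.5 and 627 FPKM in CON1 to CON5 and 617, 623, 648, 658 and 703 FPKM in HG1 to HG5. The groups overlapped, with 652 ± 52.2 FPKM in CON and 649.7 ± 34.1 FPKM in the HG hearts (n = 5 each, SD). The log2 fold change of Rpl30 with its listed copies added was -0.0041 (SE 0.0554, adjusted p = 0.962), with an approximate 95% interval from -0.12 to 0.12. The copy took 38, 33.3, 8.24, 38.6 and 7.69% of the sum in CON1 to CON5 and 68.2, 65.9, 68.4, 69.2 and 62.9% in HG1 to HG5. The groups thus differed in the division of reads between both genes, not detectably in their sum. How reads that match both genes were assigned is not given in the sources used here, and its part in this result was not tested.

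**Figure D3:**
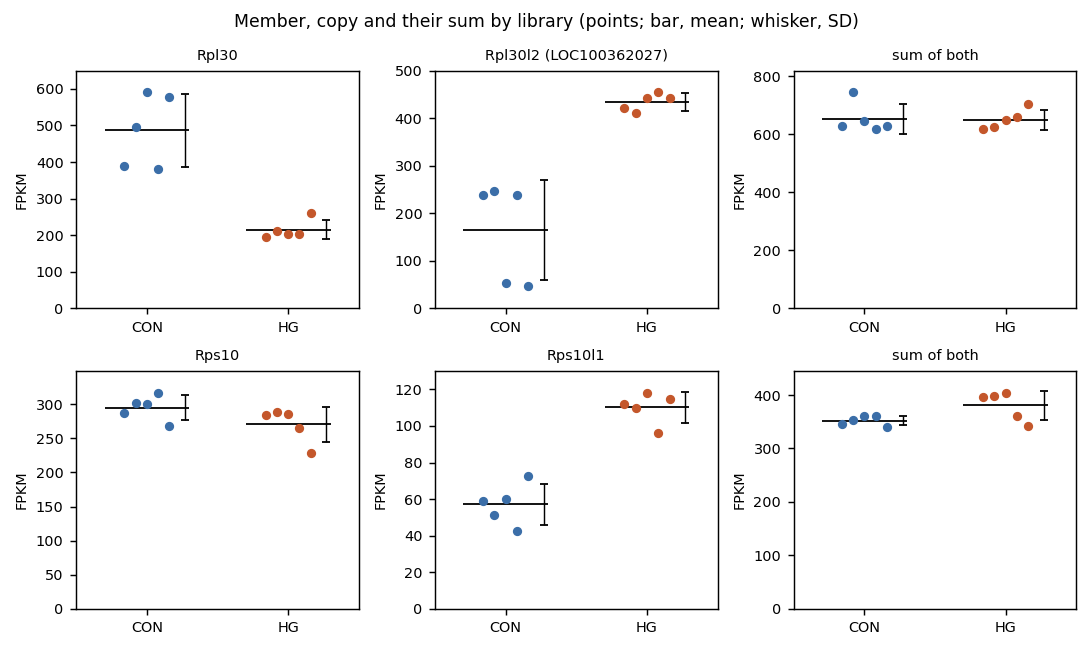
FPKM by library of Rpl30, its copy Rpl30l2 and their sum (top) and of Rps10, Rps10l1 and their sum (bottom), with the mean (bar) and SD (whisker) of the 5 CON and 5 HG libraries. The sum of Rpl30 and its copy overlaps between the groups at 619.5 to 744 FPKM in CON and 617 to 703 FPKM in HG, while both genes alone do not overlap.

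Rps10l1, a copy of Rps10, which is a protein near the mRNA entry of the small subunit, had 58.9, 51.3, 60, 42.7 and 72.6 FPKM in CON1 to CON5 and 112, 109.9, 118, 96 and 115 FPKM in HG1 to HG5. Every HG library was above every CON library, and the level rose 1.95-fold (log2 fold change 0.97, SE 0.113, adjusted p = 5.47e-05). Rps10 itself had 288, 302, 300.0, 317 and 268 FPKM in CON1 to CON5 and 284, 289, 286, 265 and 228 FPKM in HG1 to HG5 (log2 fold change -0.13, SE 0.0664, adjusted p = 0.146) and was not called. Its log2 fold change was -0.22 with median-of-ratios factors, where it was called lower (adjusted p = 0.0345 in limma), and -0.07 without HG5, its lowest library. The sum of both was 347, 353, 360.0, 359.9 and 340.5 FPKM in CON1 to CON5 and 396, 399, 405, 361 and 343 FPKM in HG1 to HG5, with overlap (two-sided exact permutation p = 0.0794, n = 5 each). Rps10l1 was called under each of the 24 alternatives, with adjusted p up to 0.000619. RefSeq calls this locus a pseudogene, and the origin of its reads was not tested.

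Rpl10l, a paralog of Rpl10 known from the testis, had 16.1, 19.2, 14.4, 17.4 and 22.3 FPKM in CON1 to CON5 and 21.4, 23.9, 23.7, 35.9 and 29.9 FPKM in HG1 to HG5. The level rose 1.5-fold (log2 fold change 0.58, SE 0.142, adjusted p = 0.00653), although the lowest HG library lay below the highest CON library. Rpl10, which joins the large subunit late, had 939, 911, 967, 924 and 901 FPKM in CON1 to CON5 and 877, 890.3, 898, 955 and 867 FPKM in HG1 to HG5 (log2 fold change -0.05, SE 0.0378, adjusted p = 0.32). Of the 24 alternatives, it was called lower under median-of-ratios factors only (log2 fold change -0.14, adjusted p = 0.0305 in limma).

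Rpl39l, a paralog of Rpl39 used in male germ cells, stood on few reads, 22, 16, 11, 23 and 28 in CON1 to CON5 and 4, 8, 10, 13 and 4 in HG1 to HG5. Its levels were 2.39, 1.73, 1.23, 2.49 and 3.11 FPKM in CON1 to CON5 and 0.412, 0.857, 1.13, 1.45 and 0.472 FPKM in HG1 to HG5, which overlap between the groups. It fell by 59.7% (log2 fold change -1.31, SE 0.317, adjusted p = 0.00612). With a pseudocount of 1 the log2 fold change was -0.77, since the gene is low. Rpl39, which lines the exit tunnel of the ribosome, had 625 ± 79.5 FPKM in the CON hearts and 658 ± 64.6 FPKM in the HG hearts (n = 5 each, SD) and was not called (adjusted p = 0.502 in limma).

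Rpl17, a protein at the exit tunnel, fell without an abundant copy in the list. It had 616, 779, 784, 790.3 and 624 FPKM in CON1 to CON5 and 480.0, 479, 501, 508 and 626 FPKM in HG1 to HG5. HG5 lay within the CON range, and the other 4 HG libraries lay below all CON libraries. On the fitted scale it fell by 27.7% (log2 fold change -0.47, SE 0.0928, adjusted p = 0.00183), and without CON2 and HG5 the log2 fold change was -0.51 (adjusted p = 0.00118 in limma). The only listed copy by RefSeq name, Rpl17l5, had a mean of 0.277 FPKM, and adding it left the log2 fold change at -0.47.

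The muscle paralog Rpl3l was at the edge of detection in these fetal hearts. Its reads were 1, 7, 1, 3 and 1 in CON1 to CON5 and 3, 3, 2, 0 and 3 in HG1 to HG5, or 24 reads in all. They amount to 0.0413, 0.287, 0.0424, 0.123 and 0.0423 FPKM in CON1 to CON5 and 0.117, 0.122, 0.0863, 0 and 0.135 FPKM in HG1 to HG5. HG4 had 0 reads, which allows up to 0.127 FPKM at a floor of 3 reads, for counting error alone. CON2 had the most reads, and the groups overlapped.

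Rpl3l made up 0.0141 ± 0.0137% of Rpl3 and Rpl3l together in CON and 0.011 ± 0.00652% in the HG hearts (n = 5 each, SD, two-sided exact permutation p = 0.754). Nearly all mRNA of the pair was thus Rpl3 in both groups. Set beside the other members on the log2 scale, Rpl3l differed between HG and CON by -0.11 relative to their mean (two-sided exact permutation p = 0.762, n = 5 each, where 0.00794 is the smallest possible). Fitted without the level filter, its log2 fold change was -0.05 (SE 0.318, adjusted p = 0.934 in limma). A difference in Rpl3l was not detectable at this depth, and the sign of this fold change turned when CON2, CON4 or HG4 was left out. Rpl30l1 was listed above 0 in CON5 and HG5 only, and Rplp0l1 in CON2 only, with at most 0.053 FPKM. Other genes that mark the adult cardiomyocyte were far better expressed. The 15 tested, among them Myh6, Tnni3, Ckm and Mb, summed to 7117 to 7790 FPKM in CON and 4238 to 4676 FPKM in HG. Of these, 13 fell and 1 rose, where 11.8% and 28.4% of all genes did.

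In 7 pairs both genes passed the filter, and the share of the second gene was compared between the groups. FPKM are scaled by the length listed for each gene, for example 1042 bases for Rps10 and 570 for Rps10l1. The size of a share therefore depends on these lengths and on how reads were assigned to each gene. Rps10l1 made up 17, 14.5, 16.7, 11.9 and 21.3% in CON1 to CON5 and 28.3, 27.6, 29.2, 26.6 and 33.5% in HG1 to HG5, which is 16.3 ± 3.48% in the CON hearts and 29 ± 2.67% in the HG hearts (n = 5 each, SD, two-sided exact permutation p = 0.00794, adjusted over 7 pairs 0.0278). The shares did not overlap. Rpl10l made up 1.89 ± 0.364% in the CON hearts and 2.9 ± 0.541% in the HG hearts (n = 5 each, SD, two-sided exact permutation p = 0.0159, adjusted over 7 pairs 0.0278), with a small overlap. Rpl39l made up 0.36 ± 0.151% in the CON hearts and 0.133 ± 0.0679% in the HG hearts (n = 5 each, SD, two-sided exact permutation p = 0.0159, adjusted over 7 pairs 0.0278).

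Rpl36al, whose protein is nearly identical to that of Rpl36a, made up 41.1, 38.8, 40.6, 38.1 and 38.8% in CON1 to CON5 and 36.5, 36, 34.9, 37.9 and 36.1% in HG1 to HG5, which is 39.5 ± 1.28% in the CON hearts and 36.3 ± 1.1% in the HG hearts (n = 5 each, SD, two-sided exact permutation p = 0.00794, adjusted over 7 pairs 0.0278). All HG libraries were below all CON libraries. Rpl36a rose, with 260.5 ± 13 FPKM in the CON hearts and 293 ± 15 FPKM in the HG hearts (n = 5 each, SD, log2 fold change 0.17, SE 0.0449, adjusted p = 0.0105). Rpl36al had 169.8 ± 7.76 FPKM in the CON hearts and 166 ± 9.13 FPKM in the HG hearts (n = 5 each, SD, log2 fold change -0.03, SE 0.045, adjusted p = 0.648). The rise of Rpl36a was not called with median-of-ratios factors (adjusted p = 0.175 in limma), whereas a share does not depend on a factor applied to a whole library.

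The share of Rpl22l1, which can replace Rpl22, was 12.1 ± 0.994% in the CON hearts and 12.5 ± 0.655% in the HG hearts (n = 5 each, SD, two-sided exact permutation p = 0.452, adjusted over 7 pairs 0.508). That of Rps27l, a p53 target, was 6.75 ± 0.89% in the CON hearts and 7.09 ± 1.06% in the HG hearts (n = 5 each, SD, two-sided exact permutation p = 0.508, adjusted over 7 pairs 0.508), and CON2 and HG5 were the lowest of their groups at 5.21% and 5.33%, with Rps27 high there. That of Rps18l1 was 6.39 ± 0.747% in the CON hearts and 5.53 ± 0.616% in the HG hearts (n = 5 each, SD, two-sided exact permutation p = 0.0873, adjusted over 7 pairs 0.122). For these 3 pairs the shares overlapped and no difference was called. Without CON2 and HG5 the differences of Rpl10l, Rpl36al, Rpl39l and Rps10l1 were 0.946, -3.31, -0.242 and 11.2 percentage points (exact permutation p = 0.0571, 0.0286, 0.0571 and 0.0286, n = 4 each, where 0.0286 is the smallest possible).

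**Figure D4:**
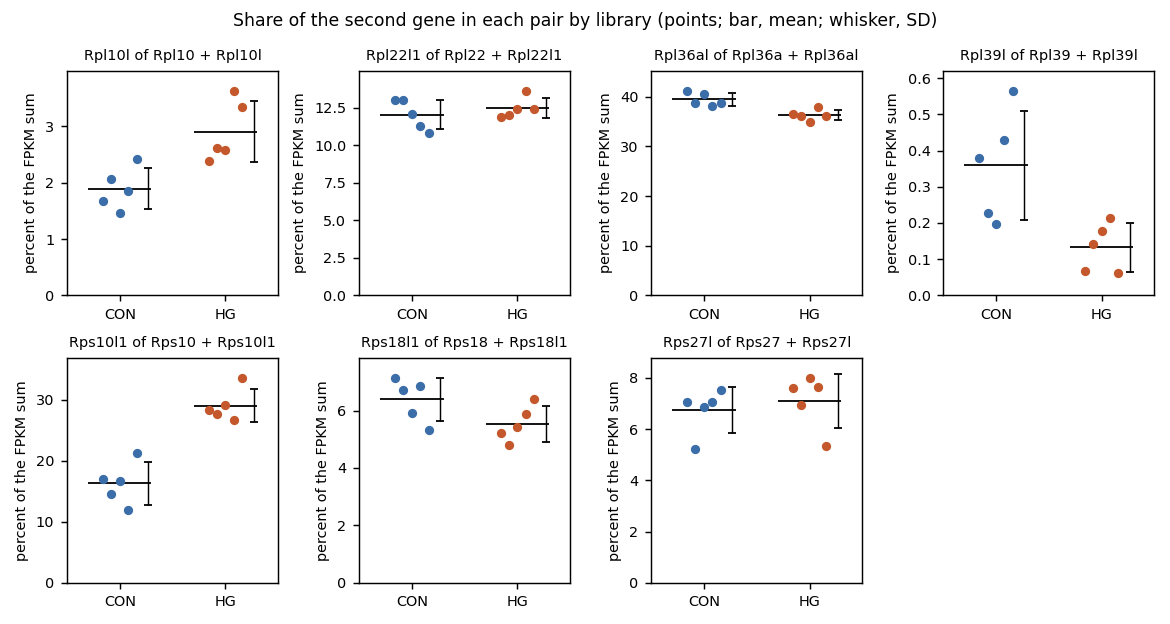
Share of the second gene in the FPKM sum of each of 7 pairs, in percent, by library (points), with the mean (bar) and SD (whisker) of the 5 CON and 5 HG libraries. The HG libraries all lie above the CON libraries for Rps10l1 and all below them for Rpl36al, and the other pairs overlap.

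Another abundant copy, chosen after its values were seen, varied between the libraries without a difference between the groups. The second locus of Rpl35a, listed as LOC103690996, had 185, 39.3, 121, 171 and 166 FPKM in CON1 to CON5 and 121, 99.8, 129, 111 and 103 FPKM in HG1 to HG5 (log2 fold change -0.10, adjusted p = 0.845 in limma). CON2 was far below the rest. Rpl35al1 itself, the RefSeq gene Rpl35a, had 235, 192, 217, 217 and 231 FPKM in CON1 to CON5 and 243, 229.7, 251, 273 and 218 FPKM in HG1 to HG5 (log2 fold change 0.15, SE 0.0662, adjusted p = 0.0868). Its level was not called and, unlike at Rpl30, did not rise in the library where the copy was low. Not every abundant copy varied in this way. Rps14-ps7, also chosen after its values were seen, had 311 ± 16.9 FPKM in CON and 325 ± 12.4 FPKM in HG (n = 5 each, SD, log2 fold change 0.07, adjusted p = 0.243 in limma). Among the other genes with the entry Ribosome, mitochondrial ones left out, 69 were examined together, of which 46 passed the filter. Of these, 6 rose (13%) and 0 fell, where 28.4% and 11.8% of all genes did. The 46 genes summed to 1125 to 1424 FPKM in CON and 1457 to 1690 FPKM in HG. Rpl30l2 alone made up 48.2 to 248 and 410.4 to 455 FPKM of this.

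As a share of the summed FPKM, the 84 members made up 11.6, 12.2, 12.1, 11.9 and 11.7% in CON1 to CON5 and 12.6, 12.6, 13, 12.7 and 13.3% in HG1 to HG5. Every HG library was above every CON library, by 0.942 percentage points in the mean (11.9 ± 0.255% and 12.8 ± 0.3%, SD, n = 5 each), a description with no test. Of the recovered reads the members took 3.88, 4.01, 3.97, 3.87 and 3.79% in CON1 to CON5 and 4.04, 4.08, 4.18, 4.16 and 4.15% in HG1 to HG5. A share depends on what else is in the library: hemoglobin genes made up 2.27 to 4.21% of the summed FPKM in CON and 1.86 to 2.56% in HG. With the hemoglobin genes left out, the members' share differed by 0.834 percentage points, and 17 members rose and 3 fell, against 25.7% and 12.3% of all genes.

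The other genes of ribosome production are given from lists chosen with earlier results of these data known. Of 72 tested genes of ribosome assembly in the nucleolus, 46 (63.9%) rose and 1 fell, with a median log2 fold change of 0.18, where 28.4% of all genes rose. Nucleolin (Ncl), the major nucleolar protein, had 194 ± 7.22 FPKM in the CON hearts and 257 ± 14.1 FPKM in the HG hearts (n = 5 each, SD, log2 fold change 0.40, adjusted p = 2.66e-05). Nop56, a core protein of the particles that methylate ribosomal RNA, had 51.2 ± 2.47 FPKM in the CON hearts and 70.3 ± 4.95 FPKM in the HG hearts (n = 5 each, SD, log2 fold change 0.46, adjusted p = 4.32e-05). Utp18, of the early small subunit precursor, had 5.46 ± 0.621 FPKM in the CON hearts and 7.86 ± 0.576 FPKM in the HG hearts (n = 5 each, SD, log2 fold change 0.52, adjusted p = 0.000475), the largest change of the list. With median-of-ratios factors 22 of the 72 (30.6%) rose and 3 fell, against 15.7% and 17.5% of all genes. Ncl, Nop56 and Utp18 were among those that rose.

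Of 15 genes of RNA polymerase I and its factors, which transcribe ribosomal RNA, 8 (53.3%) rose, where 28.4% of all genes did. The list's median log2 fold change was 0.17. With median-of-ratios factors 5 rose and 1 fell, against 15.7% and 17.5% of all genes. Rrn3, which makes the polymerase competent to start, had 17.8 ± 0.617 FPKM in the CON hearts and 21 ± 1.22 FPKM in the HG hearts (n = 5 each, SD, log2 fold change 0.24, adjusted p = 0.00169). Of 17 other genes listed as TOP mRNAs, 5 (29.4%) rose, near the 28.4% of all genes, and the list's median log2 fold change was 0.03. With median-of-ratios factors 5 rose and 3 fell, against 15.7% and 17.5% of all genes. With quantile normalization 10 rose, against 18.0%. The largest change among them was that of Nap1l1, a histone chaperone, with 71.1 ± 1.86 FPKM in the CON hearts and 103 ± 5.64 FPKM in the HG hearts (n = 5 each, SD, log2 fold change 0.54, adjusted p = 2.24e-06). Eef1a1, the elongation factor that delivers transfer RNA, had 3142 ± 204 FPKM in the CON hearts and 3048 ± 246 FPKM in the HG hearts (n = 5 each, SD, log2 fold change -0.05, adjusted p = 0.62). Npm1 belongs to the assembly and TOP lists, and Fau and Rack1, described above, are in the TOP list as well. Of the 12 genes of the TOP list with a start window, 7 (58.3%) had a run of C and T of 8 bases or more.

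Of 18 tested regulators of ribosomal protein synthesis, 7 (38.9%) rose, where 28.4% of all genes did, and the median log2 fold change of 0.10 was close to the 0.09 of all genes. Larp1 had 28.6 ± 0.766 FPKM in the CON hearts and 33.8 ± 1.14 FPKM in the HG hearts (n = 5 each, SD, log2 fold change 0.24, adjusted p = 0.000279), Mycn, a transcription factor of growing cells, had 12.9 ± 0.876 FPKM in the CON hearts and 20.6 ± 2.55 FPKM in the HG hearts (n = 5 each, SD, log2 fold change 0.66, adjusted p = 6.6e-05), and Myc had 12.1 ± 0.723 FPKM in the CON hearts and 11.8 ± 0.811 FPKM in the HG hearts (n = 5 each, SD, log2 fold change -0.04, adjusted p = 0.63). With median-of-ratios factors 3 of the 18 (Larp1, Mycn and Eif4ebp1) were called higher, where 15.7% of all genes were. Rheb, Rps6kb1, Rps6kb2 and Zfp622 were no longer called. Of the 44 mitochondrial ribosomal proteins with the same pathway entry, 1 rose and 12 (27.3%) fell, where 28.4% of all genes rose and 11.8% fell, and the list's median log2 fold change was -0.06. With median-of-ratios factors 20 (45.5%) fell, against 17.5% of all genes, and with quantile normalization 16 (36.4%) fell, against 15.9%. A run of C and T of 8 bases or more at the start was found in 13.9% of the 36 genes with a window.

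**Figure D5:**
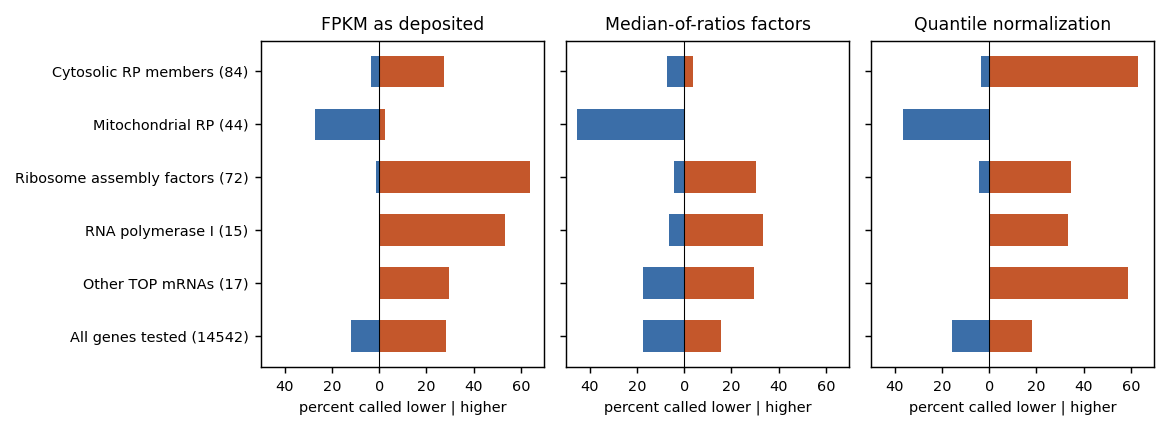
Percent of the tested genes of each list called higher (right, orange) or lower (left, blue) in HG at an adjusted p under 0.05, as deposited, with median-of-ratios factors and with quantile normalization. The number of genes tested is in brackets, and the bar of the members changes from 27.4% higher to 3.57% and 63.1% with the scaling, while mitochondrial ribosomal proteins were called mainly lower in all panels.

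Cell type markers moved between the groups too, and their part in these results was not tested. Of all genes tested, 28.4% rose and 11.8% fell. The 5 cardiomyocyte markers Tnnt2, Actc1, Myh7, Myh6 and Ttn summed to 17336 to 18419 FPKM in CON and 14006 to 16554 FPKM in HG, and 4 of them fell. Of 4 markers of cycling cells 4 rose, with sums of 206 to 234 and 295 to 328 FPKM. Of 5 red cell markers 4 fell, with sums of 59 to 108 and 39.7 to 56.8 FPKM. Of 3 smooth muscle markers 2 rose, with sums of 573 to 696 and 758 to 967 FPKM. Of 4 macrophage markers 2 rose, of 4 fibroblast markers 2 rose and 1 fell, and the 4 endothelial markers and 1 skeletal muscle marker tested were not called. The 4 liver markers fell, with sums of 3.12 to 73 FPKM in CON and 0.852 to 2.4 FPKM in HG. They varied widely within CON, with 8.26 ± 14.9 FPKM for Alb and 5.5 ± 10.5 FPKM for Afp (n = 5 each, SD). The groups did not overlap for only 1 of the 4. The 3 thymus markers did not pass the filter. In bulk tissue, fewer cells of a type and less RNA per cell cannot be told apart.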

How the data were processed

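Messenger RNA of fetal rat hearts was measured by RNA-seq in 5 CON and 5 HG libraries, grouped by the labels. The deposited values are FPKM per gene, made by the authors with fastp, HISAT2, HTSeq and R 3.2.0 on mRatBN7.2 per the submitters' processing notes. The gene annotation, and the handling of reads that match several loci, are not given in the sources used here. The FPKM steps gave whole reads for 100.0% of 18025 genes (tolerance 0.002 reads), with 16672876 to 19109844 reads per library.

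Genes that averaged 0.1 FPKM or more were fitted on log2(FPKM + 0.1) with limma 3.58.1 (R 4.3.3, prior variance with a trend, Benjamini-Hochberg over 14542 genes), and a gene was called at an adjusted p under 0.05. Shares were compared by two-sided exact permutation tests over all divisions of the libraries (Python 3.11.15 with numpy 2.4.6, pandas 2.3.3 and matplotlib 3.10.9). Rpl3l, under the level filter, was fitted without it. The scripts were tested on simulated data. Alternatives covered the pseudocount, the filter, 4 other scalings, the prior, weights per library, a block for the replicate number and leaving out each library. Voom on recovered reads was another, with 28 members higher and 3 lower, against 29.1% and 11.9% of all genes. Leaving out CON2 with HG5, and adding listed copies, were chosen after seeing the data.

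Genes named were Rpl3l and Rpl3, both genes of each pair, the 3 most abundant members of each subunit, up to 6 called members with the largest change in each direction, the stalk and 5S members and, from other lists, genes on which a result turned. The members and lists were chosen with earlier results of these data known. Start windows and symbols came from RefSeq (GRCr8), matched by NCBI Gene number. There were 0 unused sample columns.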

Additional observations from a re-analysis of the deposited data

Results flagged for a closer look

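In 5 of 64 groups of 5 libraries tested, a library of a named member lay far from the other 4 by Dixon's criterion, where chance flags about 1 in 20 groups. CON2 was the library in 3 of them and HG5 in 2. Rps27 was 1173 FPKM in CON2, with the other CON libraries at 699 to 794 FPKM. Rplp1 was 1259 FPKM in CON2 (others 891 to 983 FPKM), and Rplp2 was 406 FPKM in CON2 (others 317 to 341 FPKM). In HG5, Rpl17 was 626 FPKM (others 479 to 508 FPKM) and Rpl30 was 261 FPKM (others 196 to 213 FPKM). The cause was not tested.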

How the results depend on the processing

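The count of 23 members higher became 3 with median-of-ratios factors, 53 with quantile normalization and 16 to 29 without each library in turn. Of all genes, 15.7%, 18.0% and 24.4 to 27.6% were called higher in these settings. The 3 lower became 6 with median-of-ratios factors and 3 to 4 without each library, against 17.5% and 10.3 to 11.3% of all genes. The members' median log2 fold change became -0.0025 and 0.17 under these scalings, and their share differed by 0.829 to 1.02 percentage points without each library and by 0.218 as a share of reads. Same-numbered libraries had deviations with correlations of -0.126 to 0.108. This check had no test and cannot exclude that the numbers pair the libraries, and the labels do not say. With the replicate number as a block 15 members were higher (24.5% of all genes) and 3 lower (10.5% of all genes). Under the block, Rpl3l differed by -0.00313 percentage points of the pair (exact permutation p = 0.688), by -0.11 relative to the other members and by -0.05 in fitted log2 fold change. For Rpl3l these values ran from -0.00531 to 0.00261, -0.22 to 0.13 and -0.15 to 0.21 without each library, and were 0.00137, 0.0472 and 0.12 without CON2 and HG5. A filter at 1 FPKM leaves no value for Rpl3l, and its few reads limit it. Of 720 combinations of 30 named members and 24 alternatives, 663 kept direction and side of the threshold, 16 lost the call (10 of them Rpl22), 18 gained it and 23 changed sign, of which none was called as deposited. Signs changed with median-of-ratios factors at Rpl11 (-0.0109), Rpl39 (-0.0126), Rpl41 (-0.0544), Rplp0 (-0.0629), Rplp2 (-0.0282), Rps27l (-0.0225) and Rpsa (-0.0193), with quantile normalization at Rpl10 (0.0118), Rplp1 (0.033), Rps27 (0.0565) and Rps29 (0.0342), and with the length trend removed at Rplp0 (-0.0074) and Rps27 (0.0053). Without each library in turn the values ran from -0.0479 to 0.0767 at Rplp1, -0.1157 to 0.1253 at Rps27 and -0.0781 to 0.0121 at Rps29, and without CON2 and HG5 they were 0.043 at Rplp1 and 0.0174 at Rps27. The causes were not tested.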
